A study of Mus musculus with 21 samples.

Results

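The effect of vitamin C was described in 6 of the 21 libraries of the series, those of reprogramming cells that carried Tet1CD, the catalytic domain of the DNA dioxygenase Tet1. They form 3 pairs, each with the same constructs in medium with vitamin C (Vc+) and in medium without it (Vc-): Tet1CD alone, Tet1CD with Dnmt1, and Tet1CD with shDnmt1, a hairpin against the DNA methyltransferase Dnmt1. All 6 cultures started as embryonic fibroblasts of ICR mice at passage 2, were infected with retroviruses for Sox2, Klf4, Oct4 and Myc (SKOM), were kept in embryonic stem cell medium with leukaemia inhibitory factor and were harvested on day 5. The pairs were chosen by their labels, and no measured value entered the choice. Each pair has 1 library per medium, so the 3 pairs differ in their constructs as well as being repeats of the vitamin C comparison. The 4 pairs without Tet1CD (the Flag+shLuc control, Dnmt1, shDnmt1, and shp53+shDnmt1, with a hairpin against p53 added; 8 libraries) served as the comparison. The labels do not say whether libraries came from separate cultures, so a p-value here reflects no more than how far these libraries spread, and the share of cells that took up each virus is not given in the sources used here. In bulk RNA, fewer cells of a type and less RNA per cell cannot be told apart.

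Vitamin C keeps the iron of 2-oxoglutarate-dependent dioxygenases in its reduced, active state. This enzyme family holds the TET proteins, which oxidise methylated cytosine and so open a route to DNA demethylation, the JmjC histone demethylases, the prolyl hydroxylases that mark hypoxia-inducible factors (HIFs) for destruction, and the hydroxylases of collagen. Vitamin C is known in this system for raising the yield of SKOM reprogramming, and the Tet1 catalytic domain is an enzyme that can use it.

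Each ratio below is the log2 of the Vc+ over the Vc- value after 5 was added to both, centred on the median of its pair. Centring matters because the Vc+ and Vc- tables were normalized separately by the authors: before it, the median gene was 0.52 to 0.53 higher on the log2 scale in the Vc+ library of each Tet1CD pair. Vitamin C and the table cannot be told apart for a single gene, so no test was made of a ratio itself. A gene was called higher or lower when its 3 pairs had the same sign and their median was at least 1 in size, that is 2-fold relative to the median gene. The difference between the 3 pairs with and the 4 pairs without Tet1CD, in which an offset shared by the tables cancels, was tested with limma over 10711 genes with Benjamini-Hochberg adjustment at 0.05.

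The Tet1 values fitted the labels. Tet1 read 3129, 2591 and 2503 in the Vc+ libraries with Tet1CD, Tet1CD+Dnmt1 and Tet1CD+shDnmt1, against 2632, 2140 and 2448 in their Vc- partners (always in this order below), while the libraries without Tet1CD held 41 to 88 with vitamin C and 11 to 19 without it. The construct was therefore present at like levels in both media, with a median Tet1 ratio of -0.28. Without Tet1CD the endogenous gene had a median ratio of 1.17, and the difference between the pairs was -1.50 ± 0.15 (SE; limma, adjusted p = 8.57e-05). Dnmt1, which copies methylation after replication, read 1080, 1224 and 655 with vitamin C and 967, 778 and 437 without it. The hairpin libraries were the lowest in both media, but the library labelled Tet1CD+Dnmt1 lay below Tet1CD alone without vitamin C, so a gain of Dnmt1 was not seen there. Trp53 read 962, 1076 and 803 with vitamin C, against 742, 594 and 690 without it, a median ratio of -0.15.

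All 4 reprogramming factors had ratios below 0, that is below the median gene, in the 3 Tet1CD pairs, though none passed 2-fold. Klf4 read 3886, 4142 and 4141 with vitamin C and 5059, 4210 and 4822 without it, a median ratio of -0.74. Sox2 had a median ratio of -0.51, Pou5f1 (Oct4) of -0.48 and Myc of -0.95. Only Klf4 had the lower deposited value with vitamin C in every pair. Sox2 read 2500, 2469 and 2379 with vitamin C and 2627, 2233 and 2375 without it. Pou5f1 read 3259, 3259 and 3076, against 3884, 2697 and 3005, and Myc 6109, 7069 and 7995, against 10782, 7021 and 10782. Where the value was higher with vitamin C, the ratio below 0 comes from the centring. In the pairs without Tet1CD the medians were 0.25 for Klf4, 0.07 for Sox2, 0.01 for Pou5f1 and -0.90 for Myc. The differences between the pairs were -0.996 ± 0.15 for Klf4 (adjusted p = 0.00117), -0.55 ± 0.10 for Sox2 (adjusted p = 0.00277), -0.52 ± 0.13 for Pou5f1 (adjusted p = 0.0137) and -0.04 ± 0.19 for Myc (adjusted p = 0.914). Lower ratios with Tet1CD thus passed the test for 3 of the 4 factors. Myc stood at 19681, the highest Vc- value, in every Vc- library without Tet1CD. Its ratios without Tet1CD and its difference are therefore cut off and do not show whether Myc differed. The call for Pou5f1 was lost in a model over the 14 single libraries. Transgene and endogenous reads of these genes cannot be told apart.

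Across 10709 genes with a ratio, 158 (1.48%) were called higher and 75 (0.7%) lower with vitamin C in the Tet1CD pairs. A common direction in all 3 pairs was far more frequent: 2448 genes (22.9%) were higher and 2417 (22.6%) lower in each. The 4 pairs without Tet1CD, at the same fold, had 64 genes higher (0.598%) and 78 lower (0.728%) of 10710. That call needed the same sign in 4 pairs instead of 3 and is stricter, so the counts of the 2 sets are not matched. Each Tet1CD pair had 216 to 237 genes at a ratio of 1 or more, against 88 to 120 in the other pairs. At -1 or less stood 194 genes in the Tet1CD pair, 96 in the Tet1CD+Dnmt1 pair and 159 in the Tet1CD+shDnmt1 pair, against 111 to 180 in the pairs without Tet1CD. Without centring, 748 genes were higher and 9 lower, so the balance of the directions rests on the scale given to the tables. Of the 75 genes called lower, 62 also had the lower deposited value in the Vc+ library of every pair. With a pseudocount of 20 or a minimum mean of 50 the lower calls numbered 43 and 41.

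Genes called in the presence of Tet1CD were mostly under 2-fold without it, as were most of all genes. In the pairs without Tet1CD, 0.598% of all genes were called higher and 0.728% lower, with the same sign in all 4 pairs. The counts that follow rest on the median of those pairs alone. Of the 158 called higher, 24 were also at least 2-fold higher by the median of the other 4 pairs, 2 were at least 2-fold lower, and 113 had the same sign. Their median ratio was 1.45 with and 0.28 without Tet1CD. Of the 75 called lower, 5 were at least 2-fold lower and 1 at least 2-fold higher without Tet1CD, with median ratios of -1.19 with and -0.15 without it. Both groups were chosen by their ratios with Tet1CD, so the medians of 1.45 and -1.19 are set by that choice. Their contrast with the medians without Tet1CD is therefore no test. The test of the difference itself called 1382 genes higher (12.9%) and 957 lower (8.93%) in the Tet1CD pairs. Of the genes called by fold, it called the same direction for 126 of the 158 and 59 of the 75, and the opposite one for 3 of the 158; both counts use the same Tet1CD pairs. With the Dnmt1 construct as a block the test called 919 genes higher and 543 lower. Without the Dnmt1 pair 560 genes, and without the shDnmt1 pair 594 genes, were lower. Across genes, ratios correlated at 0.48 to 0.56 (Pearson) among the Tet1CD pairs, at 0.50 to 0.75 among the others and at -0.07 to 0.26 between the sets, a description over genes that share libraries and tables.

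**Figure D1:**
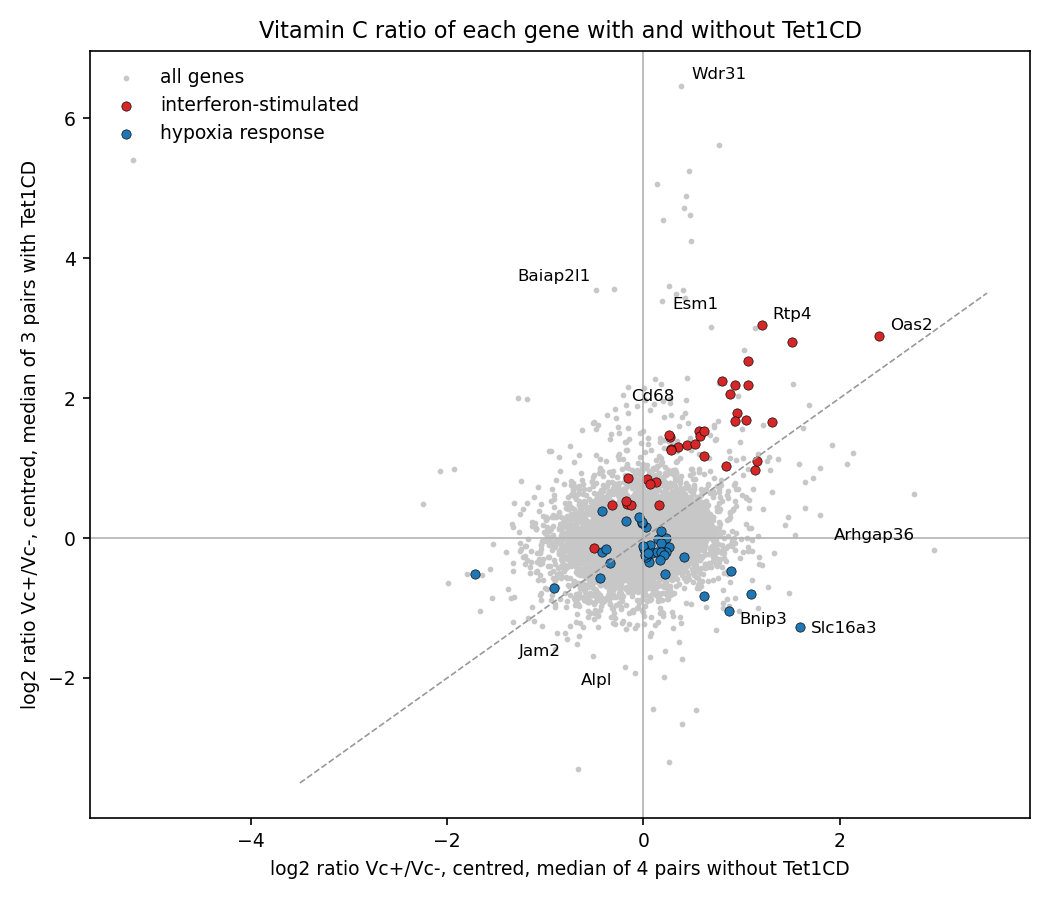
Centred log2 ratio of Vc+ over Vc- for each gene, the median of the 3 pairs with Tet1CD (vertical axis) against the median of the 4 pairs without it (horizontal axis); the dashed line marks equal ratios. Interferon-stimulated genes (red) lie mostly above the line with a median of 1.34 on the vertical axis, and Slc16a3 and Bnip3 among the hypoxia-response genes (blue) lie at lower right.

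Genes of the interferon response were higher with vitamin C in the Tet1CD pairs. Cells sense viral or misplaced nucleic acid, secrete type I interferon, and signalling from its receptor then switches on a set of antiviral genes. Of 60 genes on the interferon-stimulated list, 36 had a ratio, and 25 of these were called higher and 0 lower, beside the 1.48% of all genes. In 35 of the 36 all 3 pairs were higher, and only B2m was mixed. The median ratio was 1.32, 1.34 and 1.41 in the 3 pairs with Tet1CD, and 0.38 to 0.65 in the 4 pairs without it. The difference between the pairs was called higher for 27 members and lower for 0, beside 12.9% and 8.93% of all genes. In both sets the list thus stood above the median gene, and more so with Tet1CD. This list was drawn up with earlier results of these libraries known.

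Irf7, a transcription factor which amplifies interferon production, read 389, 430 and 547 with vitamin C, against 66, 46 and 62 without it, a ratio of 2.35 ± 0.35 (SD over 3 pairs) that did not overlap between media. Without Tet1CD its median ratio was 1.06, and the difference was 1.34 ± 0.23 (SE; adjusted p = 0.00237). The exons of Irf7 overlap those of Phrf1 on the other strand.

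Among sensors of nucleic acid, Ddx58 (RIG-I) and Ifih1 (MDA5), both for double-stranded RNA, had median ratios of 1.67 and 1.52. Ddx58 read 913, 861 and 774 with vitamin C and 171, 184 and 211 without it. Zbp1, a sensor of left-handed nucleic acid that can start necroptosis, read 391, 377 and 404, against 61, 59 and 51, a median ratio of 2.06. The differences from the pairs without Tet1CD were 0.73 for Ddx58 (adjusted p = 0.00472), 0.94 for Ifih1 (adjusted p = 0.00311) and 1.19 for Zbp1 (adjusted p = 0.00173). All 3 sensors therefore had higher ratios with Tet1CD.

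Effectors had 3 of the 4 largest ratios of the list. Rtp4, an interferon-induced inhibitor of viral genome replication, had 435, 381 and 466 with vitamin C and 32, 44 and 31 without it, a ratio of 2.90 ± 0.39 (SD over 3 pairs). Its difference from the pairs without Tet1CD, where the median was 1.21, was 1.68 ± 0.25 (SE; adjusted p = 0.00108). Oas2, which makes 2′-5′ oligoadenylate to activate RNase L, read 680, 690 and 757, against 67, 43 and 67. With a median of 2.89 with and 2.40 without Tet1CD, Oas2 was high in both sets, and its difference of 0.82 ± 0.28 did not pass the test (adjusted p = 0.06). Oasl2 of the same family read 1117, 1150 and 1533 with vitamin C and 143, 110 and 120 without it, a median ratio of 2.80 and a difference of 1.36 ± 0.18 (adjusted p = 5.93e-04). Bst2 (tetherin), which holds budding virus on the cell surface, read 406, 376 and 527, against 58, 65 and 59. In antigen presentation the ratios were smaller: Tap1, a subunit of the peptide transporter, had a median of 0.86, and the class I heavy chain genes H2-K1 and H2-D1 had 0.77 and 0.48. None of these 3 was called by fold, yet all 3 differences passed the test, at 1.05 for Tap1 (adjusted p = 6.19e-04), 0.75 for H2-K1 (adjusted p = 0.00169) and 0.76 for H2-D1 (adjusted p = 9.08e-04). B2m, their light chain, read 4586, 5728 and 4441 with vitamin C and 3513, 3694 and 3694 without it, a median ratio of -0.14.

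**Figure D2:**
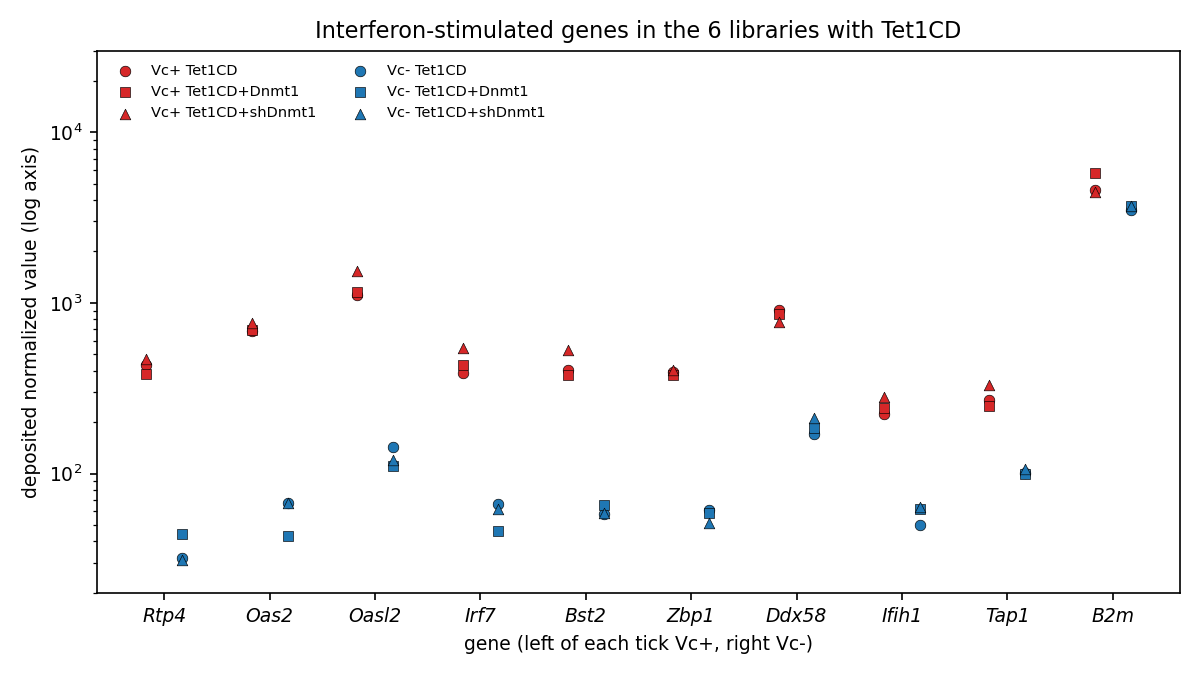
Deposited normalized values (log axis) of 10 interferon-stimulated genes in the 6 libraries with Tet1CD, Vc+ in red left of each tick and Vc- in blue right of it; marker shape gives the construct. Rtp4 reads 381 to 466 with vitamin C and 31 to 44 without it, while B2m, at 4441 to 5728 and 3513 to 3694, lies near the shift of the median gene.

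An effector of this pathway, Bst2, carries, in the 300 bases around its RefSeq start (250 before and 50 after; GRCm38.p6), the motif TTTCNNTTTC bound by IRF proteins. The promoter is shown 5′ to 3′ on the strand of the gene, with the motif, read on either strand, in capitals.
Bst2: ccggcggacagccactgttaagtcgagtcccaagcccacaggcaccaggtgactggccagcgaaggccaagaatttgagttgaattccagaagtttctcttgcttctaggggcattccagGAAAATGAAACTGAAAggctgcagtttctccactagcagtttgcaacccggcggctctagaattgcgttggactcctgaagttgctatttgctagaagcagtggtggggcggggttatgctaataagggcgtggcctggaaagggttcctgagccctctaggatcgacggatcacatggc
The Bst2 window (chr8:71537423-71537722, minus strand) holds 2 overlapping matches that begin 130 and 124 bases before the start. Of all 32851 mouse promoter windows in the RefSeq table, 3.44% hold the motif on either strand. A window was found for 16 of the 25 interferon genes called higher, too few for a share over that group. Bst2 is shown as an example with the motif. Of the other interferon genes described above that had a window, Ddx58, Ifih1 and B2m also held a match. Irf7, Oasl2, Tap1, H2-K1 and H2-D1 held none. A match is a run of letters and no measured site.

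Part of the markers of another cell type, the macrophage, moved with this group. Of 16 markers of macrophages 4 had a ratio, and 3 were called higher, beside 1.48% of all genes. Cd68, a lysosomal protein of phagocytes, read 358, 393 and 300 with vitamin C and 62, 72 and 68 without it, a ratio of 1.77 ± 0.20 (SD over 3 pairs). Itgam, an integrin of myeloid cells, had 636, 585 and 497, against 112, 92 and 102, and Laptm5, a lysosomal protein of blood cells, 2156, 1926 and 1578, against 510, 425 and 529. All 3 had higher ratios with Tet1CD, with differences of 1.96 for Cd68 (adjusted p = 1.42e-04), 1.68 for Itgam (adjusted p = 1.09e-04) and 1.97 for Laptm5 (adjusted p = 4.02e-05). Ptprc (CD45), which defines blood cells, read 47, 50 and 45 with vitamin C and 43, 44 and 36 without it, a median ratio of -0.36. The summed value of the 4 was 2420 to 3197 with vitamin C and 633 to 735 without it. Lyz2 was listed with vitamin C alone, at 29 to 53. The other 11 markers, Csf1r, Adgre1 and the C1q genes among them, had no value in either table. Whether macrophages were present, and any part of theirs in the interferon result, was not tested.

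Of the 10 genes called higher with the largest ratios (among named genes with a mean of at least 50 and below the highest value), Rtp4 and Oas2 were interferon-stimulated and the other 8 were on no list. Wdr31, a WD-repeat protein linked to cilia (4:62448653-62468888, mm10), read 8003, 5366 and 13554 with vitamin C and 58, 70 and 86 without it, a ratio of 6.27 ± 0.56 (SD over 3 pairs). The libraries without Tet1CD held 110 to 572 with vitamin C and 76 to 194 without it, and the difference was 5.87 ± 0.28 (SE; adjusted p = 4.41e-07). Baiap2l1, which couples membrane curvature to actin (5:144264526-144358112), read 1142, 945 and 1077, against 56, 51 and 62. Its median of 3.56 compared with -0.31 without Tet1CD, where the libraries held 73 to 91 with vitamin C and 57 to 68 without it, and the difference was 3.82 ± 0.14 (adjusted p = 8.93e-08). Baiap2l1 was thus at like levels in all libraries but the 3 with both Tet1CD and vitamin C. Exons of Baiap2l1 overlap those of Bri3 on the other strand. Kif24, a kinesin that restrains cilium assembly, read 1125, 595 and 732 with vitamin C and 42, 32 and 39 without it, a difference of 3.29 (adjusted p = 6.86e-07).

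Esm1, a proteoglycan secreted by endothelial cells, read 1333, 1049 and 1198 with vitamin C and 55, 87 and 75 without it, a median ratio of 3.39 and a difference of 3.12 (adjusted p = 3.35e-05). Sncg, gamma-synuclein, read 969, 879 and 997, against 64, 71 and 88, a median of 3.02 and a difference of 2.45 (adjusted p = 7.71e-06). Ccrn4l (nocturnin), a phosphatase under circadian control, stood at 18111 in each Vc+ library, against 1123, 1111 and 1236, a median of 3.48 and a difference of 2.95 (adjusted p = 2.02e-05). The repeated value comes from the scale of the tables, on which high values are few and shared. The non-coding D7Ertd715e, which GENCODE M21 names Snhg14 and which overlaps exons of Ube3a, read 7553, 5739 and 18119 with vitamin C and 219, 210 and 266 without it. Cep112os2, which GENCODE M21 names Cep112it and places within Cep112 on the same strand with no exon overlap, read 5161, 3894 and 13552, against 290, 354 and 368. Their differences were 4.45 (adjusted p = 3.18e-06) for D7Ertd715e and 3.38 (adjusted p = 6.35e-05) for Cep112os2, and the Tet1CD+shDnmt1 library was the highest for both. Since the strand setting is not given in the sources used here, reads of a gene and its opposite-strand partner cannot be told apart; exons of Tgm2, Bex1, Ccnd1, Egln2 and Plod3 also overlap protein-coding genes on the other strand. A further 4 of the 158 genes called higher reached the highest value of a table, where folds are cut off, and 11 had no symbol.

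By the same rule, the 10 genes with the largest ratios among those called lower were Tubb4a, Dab1, Jam2, Nfe2l3, Nfasc, Ehd3, Gpr50, Cadm1, Ephb2 and Tgm2. Jam2, a junctional adhesion molecule, had the tightest ratio: 350, 362 and 312 with vitamin C and 663, 721 and 635 without it, or -1.49 ± 0.05 (SD over 3 pairs). Dab1, an adaptor of the reelin receptors, read 74, 82 and 88, against 176, 171 and 190, a median of -1.59. Tubb4a, a beta-tubulin typical of neurons, read 36, 25 and 40, against 87, 74 and 61. In all 3 genes the deposited values of the media did not overlap.

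Part of this group was lower without Tet1CD too. The medians without Tet1CD were -0.67 for Jam2 and -0.90 for Dab1, and the differences were -0.77 ± 0.12 (adjusted p = 0.00126) and -0.71 ± 0.14 (adjusted p = 0.00426). Gpr50, a receptor related to those for melatonin, had medians of -1.26 with and -1.03 without Tet1CD, and its difference of -0.38 ± 0.14 did not pass the test (adjusted p = 0.0799). Ephb2, an ephrin receptor, likewise did not pass at -0.73 ± 0.33 (adjusted p = 0.134), and Nfe2l3 passed only narrowly at -0.49 ± 0.15 (adjusted p = 0.039). Cadm1, a cell adhesion molecule, and Tgm2, which cross-links matrix proteins, contrasted with these. Cadm1 read 117, 148 and 123 with vitamin C and 224, 194 and 206 without it, and its median was 0.11 without Tet1CD, a difference of -1.30 ± 0.13 (adjusted p = 1.09e-04). Tgm2 read 505, 583 and 652, against 984, 949 and 837, a difference of -1.04 ± 0.14 (adjusted p = 6.03e-04).

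The hypoxia-response list tilted downward with Tet1CD relative to the median gene. Prolyl hydroxylases use oxygen and vitamin C to tag HIF-1α for degradation, and HIF targets cover glycolysis, lactate export and mitochondrial removal. Of 46 genes listed, 38 had a ratio. In 21 of these all 3 Tet1CD pairs were lower, beside 22.6% of all genes, in 5 all were higher, and 2 were called lower and 0 higher. The list median was -0.19, -0.19 and -0.31 in the 3 Tet1CD pairs, and -0.02 to 0.21 in the other 4. The summed deposited values of the members were higher with vitamin C, at 63613, 63546 and 57518, against 45763, 47174 and 46134. The tilt therefore depends on the centring. The difference was called lower for 16 members, beside 8.93% of all genes, and higher for 3.

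Slc16a3, the lactate exporter MCT4, had 9, 20 and 19 with vitamin C and 27, 37 and 29 without it, a ratio of -1.34 ± 0.35 (SD over 3 pairs) at very low values. Without Tet1CD it read 120 to 280 with vitamin C and 26 to 52 without it. The directions thus opposed each other, with medians of -1.27 and 1.60 and a difference of -2.96 ± 0.25 (SE; adjusted p = 3.35e-05). Bnip3, which directs mitochondria to autophagy, showed the same contrast: 87, 94 and 83 with vitamin C and 119, 137 and 148 without it in Tet1CD cells, a median of -1.04, against 302 to 501 and 114 to 127 in cells without Tet1CD, a median of 0.87. The Bnip3 difference was -2.10 ± 0.19 (adjusted p = 5.25e-05). In both genes the Vc- libraries with and without Tet1CD overlapped, and the Vc+ libraries did not. Pdk1, which shuts pyruvate out of mitochondria, differed by -1.31 (adjusted p = 0.00128), and Slc2a1 (GLUT1), a glucose carrier that also takes up oxidised vitamin C, by -1.22 ± 0.14 (adjusted p = 2.59e-04).

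**Figure D3:**
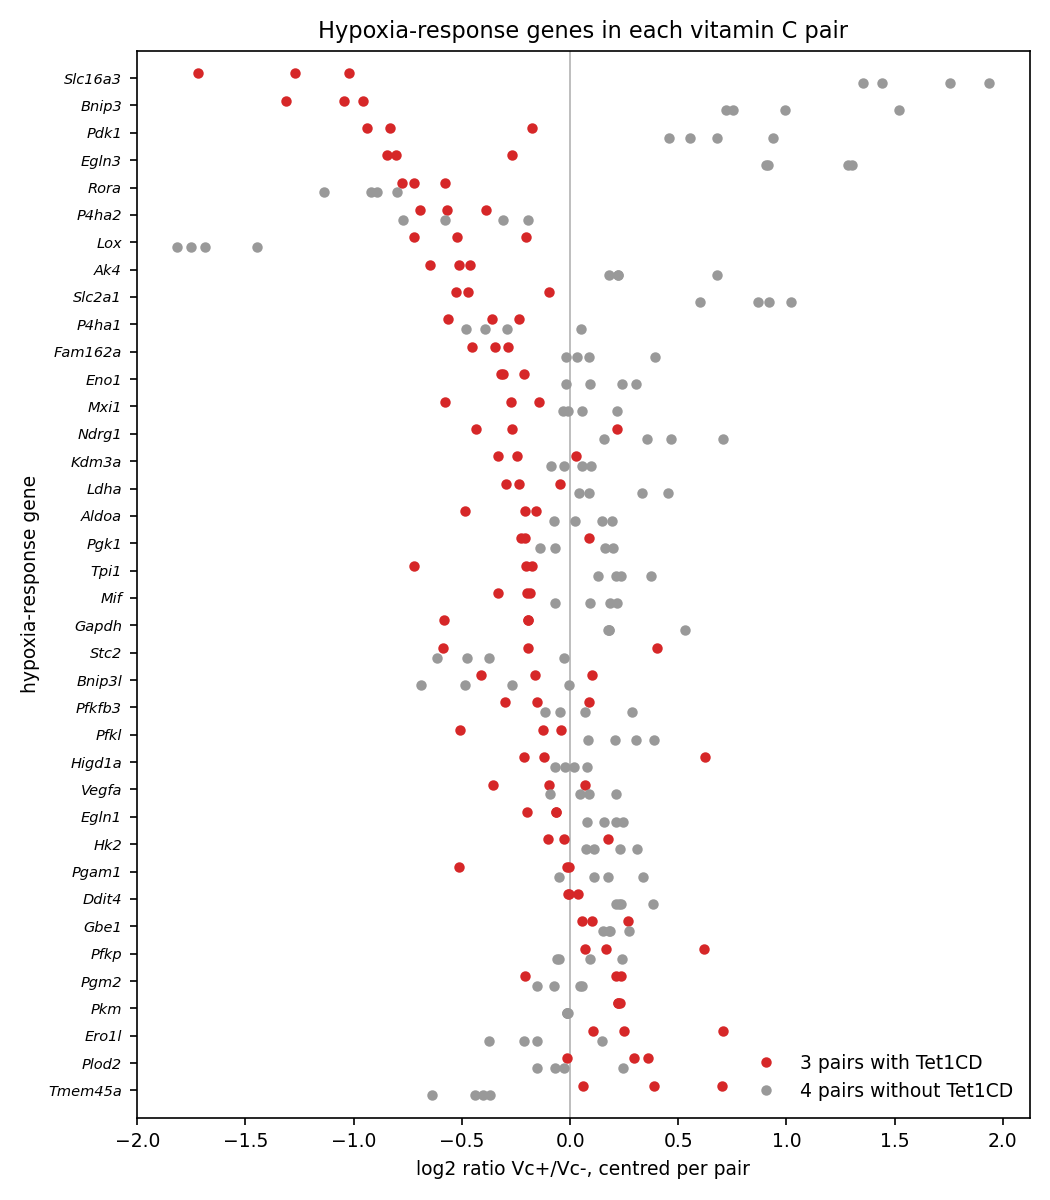
Centred log2 ratio of Vc+ over Vc- for each measured hypoxia-response gene, with the 3 Tet1CD pairs in red and the 4 pairs without Tet1CD in grey just below them. The red points of Slc16a3, Bnip3, Pdk1 and Egln3 lie left of 0 and their grey points right of it, whereas Lox and Rora lie left of 0 in both sets.

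The promoters of the 2 hypoxia genes called lower are shown with the core ACGTG of the hypoxia response element in capitals, 5′ to 3′ on the strand of the gene.
Slc16a3: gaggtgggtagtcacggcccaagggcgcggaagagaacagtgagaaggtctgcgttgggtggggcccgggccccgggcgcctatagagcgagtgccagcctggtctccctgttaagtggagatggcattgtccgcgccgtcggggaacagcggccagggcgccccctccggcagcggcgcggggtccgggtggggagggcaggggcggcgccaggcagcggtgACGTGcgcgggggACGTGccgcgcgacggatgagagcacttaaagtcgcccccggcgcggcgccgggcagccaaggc
Bnip3: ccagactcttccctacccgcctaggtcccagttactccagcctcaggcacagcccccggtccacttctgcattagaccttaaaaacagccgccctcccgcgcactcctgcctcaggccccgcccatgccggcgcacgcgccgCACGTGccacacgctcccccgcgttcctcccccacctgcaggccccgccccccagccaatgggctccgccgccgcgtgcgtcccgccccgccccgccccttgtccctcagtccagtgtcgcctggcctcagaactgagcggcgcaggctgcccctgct
Slc16a3 (chr11:120948817-120949116, plus strand) holds 2 matches, which begin 27 and 14 bases before a RefSeq start that lies 587 bases from the deposited gene start. Bnip3 (chr7:138909457-138909756, minus strand) holds a palindrome that matches on both strands, 108 and 107 bases before the start. Of the 21 hypoxia genes lower in all 3 pairs, 19 had a window and 13 of those held the motif on either strand. Of the other hypoxia genes 14 had a window and 7 held it. The motif stood in 19.6% of all 32851 windows. Those windows include genes without a ratio here, so that share is no matched background for the hypoxia genes.

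The oxygen sensors themselves are enzymes of the vitamin C-dependent family. Egln3 (PHD3), a HIF target as well as a HIF prolyl hydroxylase, read 180, 223 and 175 with vitamin C and 226, 186 and 215 without it, a median of -0.81 with and 1.10 without Tet1CD, and a difference of -1.74 ± 0.17 (adjusted p = 7.43e-05). Egln1 and Egln2, the other prolyl hydroxylases, and Hif1an, an asparaginyl hydroxylase of HIF, had medians of -0.07, 0.03 and -0.23. Their differences did not pass the test (adjusted p = 0.0586 for Egln1, 0.39 for Egln2 and 0.643 for Hif1an). Among HIF subunits and Vhl, which recognises hydroxylated HIF, only the difference of Epas1 (HIF-2α) passed. Epas1 read 511, 516 and 583 with vitamin C and 387, 327 and 356 without it, a median of 0.13, beside -1.09 without Tet1CD, and a difference of 1.15 ± 0.12 (adjusted p = 9.85e-05). Hif1a had a median of 0.11, Arnt of -0.21 and Vhl of -0.05.

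Of the vitamin C carriers, Slc23a2, the sodium-coupled transporter of the reduced form, had a median ratio of 0.16, Slc2a1 of -0.47 and Slc2a3 of -0.54. Slc23a2 read 395, 357 and 405 with vitamin C and 209, 232 and 252 without it, a gap close to the shift of the median gene. The 8 measured collagen hydroxylases had medians from -0.57 for P4ha2 to 0.29 for Plod2, and 0 were called. Plod1, a lysyl hydroxylase, was lower by -0.44 ± 0.12 in the difference (adjusted p = 0.0207) and P4ha3, a prolyl hydroxylase, higher by 0.59 ± 0.19 (adjusted p = 0.0423). Both calls were lost with the Dnmt1 construct as a block. Of 19 JmjC histone demethylases 0 were called by fold, and 2 differences were lower, beside 8.93% of all genes; Kdm4b stood at -0.65 ± 0.16 (adjusted p = 0.0131) and was lost with the same block.

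Matrix and mesenchymal genes, whose loss marks the early phase of reprogramming, had list medians near that of all genes when Tet1CD was present, with members on both sides. The 33 matrix genes had 0 calls, 9 members higher and 8 lower in all 3 pairs, and a median of -0.01 in the Tet1CD pairs, against -0.58 in the pairs without Tet1CD, and their difference was higher for 20 and lower for 0, beside 12.9% and 8.93% of all genes. The 26 mesenchymal regulators had medians of -0.04 and -0.46 in the same order, with 16 differences higher and 1 lower; 6 members were higher and 8 lower in all 3 Tet1CD pairs. Col1a2, a chain of type I collagen, stood at 13581 in each Vc+ library, against 6573, 5762 and 7031 without vitamin C, a median of 0.52, compared with -0.38 without Tet1CD and a difference of 0.92 ± 0.15 (adjusted p = 0.00178). Fbln5, which organises elastic fibres, had the lowest median of the list in the Tet1CD pairs. It read 3170, 3079 and 2729, against 3892, 4220 and 4426. Its medians were -0.98 with and -1.13 without Tet1CD, and the difference was 0.11 ± 0.13 (adjusted p = 0.609). Acta2 and Vim sat at or next to the highest value of a table, so their ratios carry little. Fibroblast markers summed to 36261 to 36637 with vitamin C and 21899 to 23880 without it, with a median ratio of 0.02 over 11 genes, near the median gene.

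Of 13 epithelial genes 1 was called higher, beside 1.48% of all genes. This was Krt8, a keratin of simple epithelia, which read 231, 200 and 221 with vitamin C and 81, 54 and 71 without it, a median of 1.06. Without Tet1CD its median was 1.58, so Krt8 was less raised with Tet1CD, at a difference of -0.55 ± 0.17 (adjusted p = 0.0368) that lost its call in the fit without an intensity trend and in the model over 14 libraries. The epithelial median of 0.048 with Tet1CD changed sign with a pseudocount of 20 and is near 0 in any case. It stood at 0.36 without Tet1CD, and 5 differences were lower and 2 higher, beside 8.93% and 12.9% of all genes. Of the 11 pluripotency genes with a ratio 1 was called lower, beside 0.7% of all genes. This was Alpl, the alkaline phosphatase used to stain early colonies, which read 16, 25 and 24, against 107, 48 and 72. Its ratio of -2.07 ± 0.81 (SD over 3 pairs) compared with a median of -0.08 without Tet1CD, a difference of -1.77 ± 0.37 (SE; adjusted p = 0.00663). The pluripotency median was -0.05, and 0.07 without the Tet1CD pair. Among the 11 pluripotency genes 5 differences were lower and 1 higher, beside 8.93% and 12.9% of all genes.

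**Figure D4:**
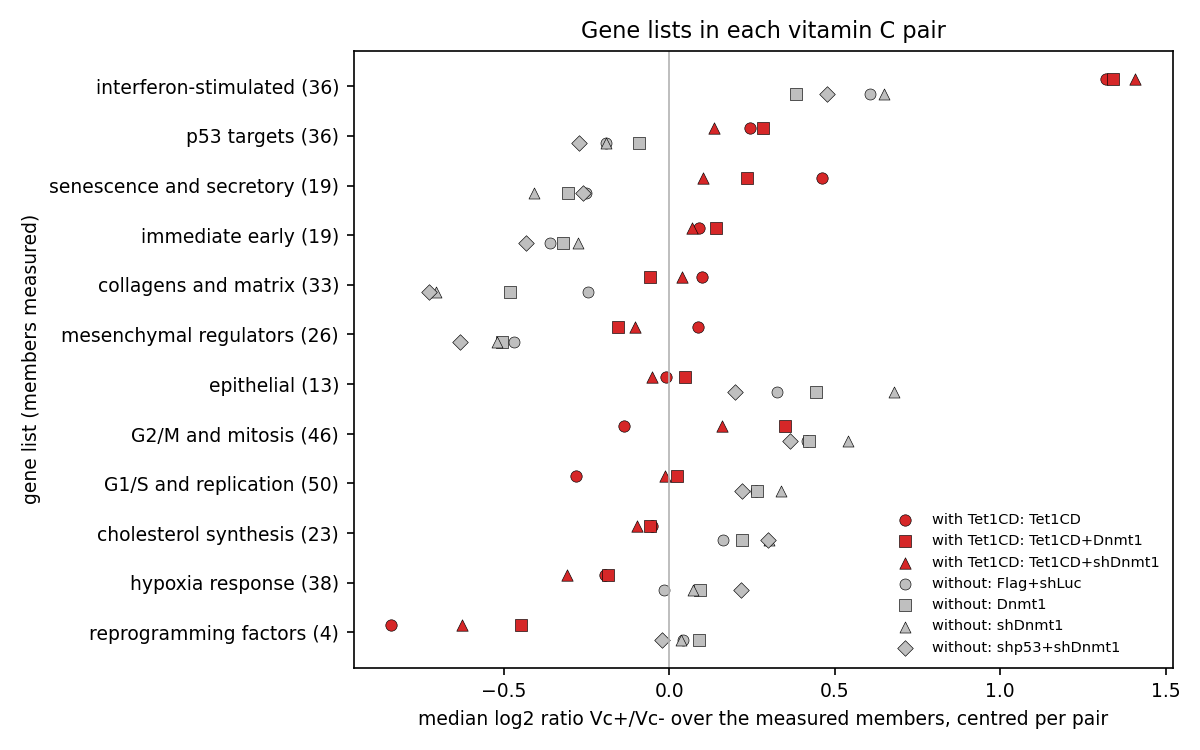
Median centred log2 ratio of Vc+ over Vc- over the measured members of 12 gene lists, 1 point per pair; red points are the 3 pairs with Tet1CD and grey points, just below, the 4 pairs without it. Matrix genes lie near 0 in the red points and at -0.73 to -0.24 in the grey ones, and the reprogramming factors at -0.84 to -0.45 in the red ones.

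Part of the proliferation genes had lower vitamin C ratios in the pairs with Tet1CD than in the pairs without it. Of 50 G1/S and replication genes 20 differences were lower and 1 higher, beside 8.93% and 12.9% of all genes, with list medians of -0.04 with and 0.27 without Tet1CD. Of 46 G2/M genes 11 were lower and 0 higher, with medians of 0.14 and 0.44. Leaving out 1 pair moved the G2/M median to 0.23 without the Tet1CD pair, -0.01 without the Tet1CD+Dnmt1 pair and 0.0872 without the Tet1CD+shDnmt1 pair. Ccnd1, the G1 cyclin of growth-factor signalling, was the 1 that was higher: it stood at 13537 in each Vc+ library, against 5732, 8451 and 6566, a median of 0.53 beside -0.94 without Tet1CD, and a difference of 1.37 ± 0.14 (adjusted p = 1.33e-04). Genes activated by p53 went the other way from the replication list. Of 36 p53 targets 19 were higher in all 3 pairs and 0 lower, beside 22.9% and 22.6% of all genes, with a median of 0.23, compared with -0.20 without Tet1CD; 21 differences were higher and 0 lower. Plk2, a p53-induced kinase, read 1484, 1367 and 1136 with vitamin C and 604, 564 and 656 without it, a median of 0.75 and a difference of 1.11 ± 0.13 (adjusted p = 2.76e-04). Dram1, an autophagy gene induced by p53, differed by 0.94 ± 0.26 (adjusted p = 0.0246), a call lost with the block.

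Of 19 senescence and secretory genes 12 differences were higher and 2 lower, beside 12.9% and 8.93% of all genes. Their median was 0.30, compared with -0.26 without Tet1CD, and it was 0.17 when the Tet1CD pair was left out. Igfbp4, which binds insulin-like growth factors, was their 1 gene called higher, at 381, 381 and 339 with vitamin C and 128, 154 and 111 without it, and differed by 0.74 ± 0.12 (adjusted p = 0.00209). Immediate early genes had 8 of 19 differences higher and 1 lower, beside 12.9% and 8.93% of all genes. Zfp36, which destabilises cytokine mRNAs, read 373, 344 and 428, against 186, 140 and 196, a median of 0.59 and a difference of 0.68 ± 0.15 (adjusted p = 0.01). Cholesterol synthesis genes had 8 of 23 differences lower and 1 higher, beside 8.93% and 12.9% of all genes. Lpin1, a phosphatidate phosphatase, was that 1, at 572, 508 and 458 with vitamin C and 272, 250 and 258 without it, and a difference of 0.76 ± 0.13 (adjusted p = 0.00206). Of 24 antioxidant genes under Nrf2, 4 differences were higher and 3 lower, shares near those of all genes.

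The enzymes of DNA methylation and its removal were not called by fold. Tet2, endogenous in all libraries, read 178, 235 and 317 with vitamin C and 227, 180 and 205 without it in Tet1CD cells, a median of -0.15. In cells without Tet1CD it read 545 to 703 with vitamin C and 207 to 304 without it, a median of 0.74, and the difference was -1.07 ± 0.21 (adjusted p = 0.00472). The Vc- libraries thus overlapped and the Vc+ libraries with Tet1CD lay below those without. Tet3 had a median of -0.08 and its difference did not pass (adjusted p = 0.0953). Dnmt1 differed by -0.61 ± 0.14 (adjusted p = 0.011), and Uhrf1, which brings Dnmt1 to replicated DNA, by -0.71 ± 0.17 (adjusted p = 0.014). Of 24 entries for imprinted genes 0 were called by fold, with 6 differences higher and 6 lower, beside 12.9% and 8.93% of all genes. Zdbf2 and Peg10, expressed from the paternal copy, had the largest medians. Peg10 read 549, 551 and 660, against 202, 168 and 265, a median of 0.89 and a difference of 1.09 ± 0.13 (adjusted p = 3.55e-04). Zdbf2 read 368, 503 and 706, against 194, 177 and 224, a median of 0.96 and a difference of 0.78 ± 0.16 (adjusted p = 0.00705).

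Among named genes with a mean of at least 50, several of the largest negative differences belonged to genes with high ratios in the pairs without Tet1CD. Arhgap36, a regulator of protein kinase A, read 58, 72 and 57 with vitamin C and 47, 25 and 44 without it in Tet1CD cells. In cells without Tet1CD it read 444 to 930 with vitamin C and 24 to 129 without it, and the medians of -0.18 and 2.96 gave a difference of -2.75 ± 0.32 (adjusted p = 2.37e-04). Frem2, a basement membrane protein, differed by -2.11 ± 0.28 (adjusted p = 5.19e-04), Rcor2, a corepressor that works with the demethylase LSD1, by -1.73 ± 0.23 (adjusted p = 5.76e-04), Bex1 by -1.63 ± 0.13 (adjusted p = 2.02e-05) and Ehf, an epithelial transcription factor, by -1.46 ± 0.23 (adjusted p = 0.00157). Des, an intermediate filament of muscle and the 1 muscle marker called higher, went the other way, at 275, 234 and 256 with vitamin C and 51, 62 and 53 without it and a difference of 2.25 ± 0.25 (adjusted p = 1.92e-04). Of neuronal and endothelial markers, 0 of 5 and 0 of 2 with a ratio were called.

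The tables list different genes: 1310 had values with vitamin C alone and 12 without it alone, and no ratio exists for them. Every listed gene reached 32 in at least 2 of the 7 libraries of its table, so a gene may be listed just because the Tet1CD libraries are high. Among the 1310, all 3 Tet1CD libraries lay above the 4 others in 374 and below them in 339. Among those with a symbol that is not a predicted gene, ranked by the lowest of the 3 Tet1CD libraries, the first were Myh7b, a slow myosin, at 544, 484 and 732, Mmrn2, an endothelial matrix protein, at 494, 412 and 385, and Apol9b, an apolipoprotein L, at 432, 391 and 345. The libraries without Tet1CD held 31 to 58 for Myh7b, 13 to 18 for Mmrn2 and 20 to 27 for Apol9b. Col6a5, Clec2g and Bfsp1 belonged to the same 8, as did 2 interferon-stimulated genes. Isg15, a ubiquitin-like antiviral protein, read 371, 260 and 496 with Tet1CD, against 40 to 56 without it, and Oas3 read 270, 258 and 272, against 17 to 26. In all, 17 interferon-stimulated genes were listed with vitamin C alone, and in each the 3 Tet1CD libraries lay above the 4 others. Among all 1310 this held for 374. Several of the 17, such as Oas3, stayed under 32 in every library without Tet1CD and could be listed only through the Tet1CD libraries. For those the listing fixed the side in advance, so the count is no test of the group.

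Germline genes that promoter methylation keeps silent in somatic cells were listed almost only with vitamin C: 14 of the 50 on the list had values in the Vc+ table alone, and 2, Sycp1 and Tex15, in both. Of all 12021 genes listed with vitamin C, 1310 were listed there alone. In 10 of the 14 the 3 Tet1CD libraries lay above the 4 others, and in 0 below, beside 374 and 339 of these 1310. A gene near 0 in the other libraries, such as Dazl, could be listed only through the Tet1CD libraries. For such genes the listing fixed the side in advance. Dazl, an RNA-binding protein of germ cells, read 337, 222 and 447 with Tet1CD, against 1, 1, 2 and 2 without it. Piwil2, which binds piRNAs, read 215, 176 and 203, against 11 to 20, and Tex19.1, which restrains transposons in germ cells, 129, 90 and 140, against 0 to 10. Asz1, a piRNA pathway protein, had 114, 72 and 82, against 0 to 16. The Vc- table does not list these genes, so their level without vitamin C is not known. Sycp1, of the synaptonemal complex, read 116, 113 and 138 with vitamin C and 61, 62 and 64 without it, a median of 0.35, and its difference of 0.17 did not pass the test (adjusted p = 0.548). Dppa2, a germline and pluripotency protein, read 46, 39 and 40 with Tet1CD, against 0 to 4.

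Other pluripotency genes of the Vc+ table lay on the opposite side. Nr0b1 (Dax1) read 5, 2 and 2 with Tet1CD, against 36 to 88 without it, and Tdh, a threonine dehydrogenase of stem cells, 13, 18 and 6, against 70 to 116. Tfcp2l1 read 33, 31 and 28, against 67 to 88. Of the 6 pluripotency genes listed in the Vc+ table alone, 4 lay below and 2, Dppa2 and Gdf3, above, beside 339 and 374 of all 1310 such genes. Ndufa4l2 and Aldoc, both hypoxia-induced, read 1, 2 and 2 and 9, 10 and 7 with Tet1CD, against 44 to 108 and 41 to 76. Dnmt3b, a de novo methyltransferase, read 15, 25 and 21, against 48 to 55. These named genes were picked from the lists after their values were seen. Of the 12 genes listed without vitamin C alone, the highest with Tet1CD were Cdh19, a cadherin of neural crest derivatives, at 37, 38 and 37 with Tet1CD, against 0 to 10 without it, Ror1, a Wnt receptor, at 36, 43 and 38, against 19 to 32, and Rpe65, a retinoid isomerase, at 34, 26 and 44, against 27 to 47.

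**Figure D5:**
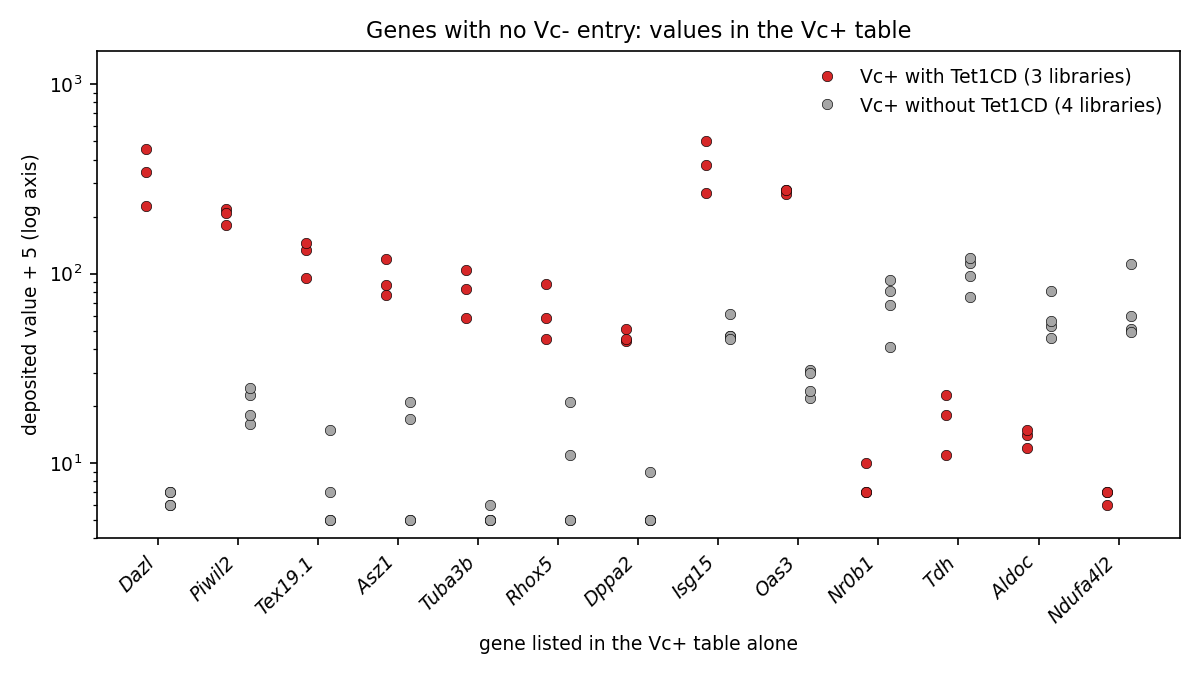
Values plus 5 (log axis) of 13 genes listed in the Vc+ table alone, with the 3 Tet1CD libraries in red left of each tick and the 4 libraries without Tet1CD in grey right of it. Germline and interferon genes lie higher in the red points, Dazl at 222 to 447 against 1 to 2 before 5 was added, and Nr0b1 to Ndufa4l2 lie lower.

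The 3 Tet1CD pairs were not alike for every gene. Mitotic genes separated the pair with Tet1CD alone, with a G2/M median of -0.14, from the pairs with Tet1CD+Dnmt1 and Tet1CD+shDnmt1, with 0.35 and 0.16. Cenpf, a kinetochore protein, read 135, 485 and 503 with vitamin C and 221, 212 and 218 without it, ratios of -1.22, 0.65 and 0.67. E2f8, a repressor of E2F targets, read 116, 173 and 185, against 123, 74 and 78. Of 46 G2/M genes 40 were mixed in sign, so the list median hides pairs that disagree. With 1 library per construct and medium, such a split cannot be told apart from the spread between cultures. The genes with the widest spread were Tom1, Rnaset2b, Rnaset2a and Slco4c1. Tom1 was listed at 0 in the Vc+ Tet1CD+shDnmt1 library and read 155 and 250 in the other Vc+ ones, against 150, 95 and 194. Rnaset2b and Rnaset2a are near-identical copies, and in the Vc+ Tet1CD+shDnmt1 library the first was low at 21 and the second high at 306, so that the division of reads between them is uncertain.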

How the data were processed

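Total RNA of ICR mouse fibroblasts in SKOM reprogramming was sequenced with Illumina TruSeq libraries, per the labels' protocols. Per the submitters' processing notes, Bowtie and RSEM were used with the mouse build mm10; no version or role is recorded there. The deposited values have the unit score: per the values in the file, whole numbers that the authors had normalized within each table, with a median of 226 in the Vc+ and 180 in the Vc- table and 10 genes per library at the highest value, 28926 or 19681. Depth is unknown, and the normalization and strand setting are not stated in the labels or file headers.

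Tables were joined on the Ensembl gene ID (12021 and 10723 genes, 10711 shared). log2((Vc+ + 5)/(Vc- + 5)) was centred on the median of each pair over genes, and genes with a mean under 10 over the 6 Tet1CD libraries were left out of the fold calls, which left 10709. The difference between the 3 pairs with and the 4 without Tet1CD was fitted with limma 3.58.1 (R 4.3.3; empirical Bayes with an intensity trend, 5 residual degrees of freedom, Benjamini-Hochberg adjustment). It was tested on simulated data. Named genes were the targeted genes and factors, the 10 largest ratios and 8 largest differences per direction (mean of at least 50, not at the highest value), the leading members of each list, the dioxygenases and transporters, genes of 1 table alone and the 4 of widest spread. The genes printed with values that fall outside this rule (further interferon-stimulated genes, Pdk1 and the germline, pluripotency and hypoxia genes of the Vc+ table) were chosen after their values were seen. The members and the 31 gene lists were chosen with earlier results of these data known. Promoters came from RefSeq (GRCm38.p6), matched by gene ID or symbol with the start within 1000 bases, for 7744 of the 10709 genes. Gene overlaps came from GENCODE M21. A few genes are not reported here.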

Additional observations from a re-analysis of the deposited data

Results flagged for a closer look

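Of the 68 genes whose difference is given with its test in the results, 58 had a vitamin C ratio that differed between the 3 pairs with and the 4 pairs without Tet1CD in the limma test (adjusted p under 0.05). Each value below is that difference on the log2 scale, with minus without Tet1CD. The genes of the largest ratios had 5.87 for Wdr31, 4.45 for D7Ertd715e, 3.82 for Baiap2l1, 3.38 for Cep112os2, 3.29 for Kif24, 3.12 for Esm1, 2.95 for Ccrn4l and 2.45 for Sncg. Interferon-stimulated genes had 1.68 for Rtp4, 1.36 for Oasl2, 1.34 for Irf7, 1.19 for Zbp1, 1.05 for Tap1, 0.935 for Ifih1, 0.763 for H2-D1, 0.749 for H2-K1 and 0.734 for Ddx58. Macrophage and muscle markers had 1.97 for Laptm5, 1.96 for Cd68, 1.68 for Itgam and 2.25 for Des. Among hypoxia and HIF genes it was -2.96 for Slc16a3, -2.10 for Bnip3, -1.74 for Egln3, -1.31 for Pdk1 and -1.22 for Slc2a1. Genes called lower had -1.30 for Cadm1, -1.04 for Tgm2, -0.767 for Jam2, -0.706 for Dab1 and -0.490 for Nfe2l3. Genes whose ratio was high in the pairs without Tet1CD had -2.75 for Arhgap36, -2.11 for Frem2, -1.73 for Rcor2, -1.63 for Bex1 and -1.46 for Ehf. Reprogramming, methylation, epithelial and stem cell genes had -1.50 for Tet1, -1.07 for Tet2, -0.610 for Dnmt1, -0.996 for Klf4, -1.77 for Alpl, -0.549 for Krt8, -0.553 for Sox2, -0.520 for Pou5f1 and -0.713 for Uhrf1. The others had 1.11 for Plk2, 1.15 for Epas1, 1.09 for Peg10, 0.922 for Col1a2, 0.737 for Igfbp4, 1.37 for Ccnd1, 0.945 for Dram1, 0.781 for Zdbf2, 0.757 for Lpin1, 0.678 for Zfp36, 0.593 for P4ha3, -0.653 for Kdm4b and -0.438 for Plod1. Within the 4 pairs without Tet1CD, the ratio in the shp53+shDnmt1 pair stood apart from the other 3 for Des, at -1.30, and for Zdbf2, at 0.237. Chance alone sets apart a sample in about 1 group of 20 by this criterion, and 68 genes were examined. The genes were chosen for description by rules that favour large values, so the share that passed is no measure of all genes.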

How the results depend on the processing

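No called ratio or tested difference of a named gene changed direction under the alternatives run; the medians of epithelial, pluripotency, matrix, mesenchymal, cholesterol, G1/S, G2/M, JmjC demethylase, Nrf2 and fibroblast marker genes did change sign under at least 1 alternative. The 158 higher and 75 lower calls became 748 and 9 without centring, since the median gene then stays 0.52 to 0.53 above 0, and 100 and 23 when every pair had to pass 2-fold. Without centring only these counts were recomputed, not the ratios of single genes or lists. Lower calls became 43 with a pseudocount of 20 and 41 with a minimum mean of 50, which compress or remove low genes. With the Dnmt1 construct as a replicate block (replicate pairing across Tet1CD; 2 residual degrees of freedom) the difference test called 919 higher and 543 lower instead of 1382 and 957; the labels give no replicate numbers, so none pairs samples. Leaving out each pair in turn, the lower count ran from 560 (without the Dnmt1 pair) to 1036, with 594 without the shDnmt1 pair. List medians that moved were interferon-stimulated genes (1.24 with a pseudocount of 20), epithelial genes (-0.052 with a pseudocount of 20, 0.15 with a minimum mean of 50, 0.10 with joint quantile normalization of both tables) and cholesterol synthesis (0.0125 with a pseudocount of 20). Leaving out 1 pair gave 1.28 to 1.31 for interferon-stimulated, -0.0552 to 0.108 for epithelial, -0.0861 to 0.0745 for pluripotency, 0.13 to 0.145 for immediate early, 0.0189 to 0.0797 for collagens and matrix and -0.0619 to -0.008 for cholesterol synthesis. For these values the cause was not tested. Over the single genes named, the difference kept its side of the threshold in 1451 recomputed values, lost it in 49 and gained it in 11. Depth is unknown, so no counting error could be given, and ratios near the highest value of a table are cut off.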
